A study of Mus musculus with 18 samples.

Results

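TGF-beta and activin ligand genes were followed across RNA-seq libraries of mouse retinal pigment epithelium (RPE). The set was made of 8 of the 52636 genes in the count table: the ligands Tgfb1, Tgfb2, Tgfb3, Inhba, Inhbb and Gdf10, and the matrix proteins Ltbp1 and Ltbp2. Genes were chosen by symbol, each symbol matched 1 row, and all 8 passed the low-count filter in every comparison. Changes are given as log2 fold change (log2FC) with its SE from edgeR's quasi-likelihood test. A gene was said to rise or fall when the Benjamini-Hochberg adjusted P over all genes tested was under 0.05, and was called differentially expressed when its absolute log2FC was also above 1.

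TGF-betas and activins are secreted dimers that bind type II and type I serine/threonine kinase receptors, which phosphorylate SMAD proteins and change transcription. TGF-beta leaves the cell bound to its own propeptide. Latent TGF-beta binding proteins such as LTBP1 hold this inactive complex in the extracellular matrix until integrins or proteases release it. In the eye these ligands are known for their effects on the extracellular matrix of the sclera, on wound healing and on the epithelial state of RPE cells.

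The samples were 18 libraries in 6 groups of 3, all from C57BL/6 mice at postnatal day 14, and each library pooled both eyes of 1 mouse. Uninjected mice received no virus, and the other 5 groups received an AAV8 vector under the eye's neural retina shortly after birth, with the RPE promoter of Best1 driving its cargo. The cargo was GFP, nSREBP2 (the nuclear, active form of the sterol regulator SREBP2), a control hairpin (ctrl sh, against LacZ), or 1 of 2 hairpins against Lrp2, the endocytic receptor megalin (Lrp2 sh1 and Lrp2 sh2). nSREBP2 is compared with GFP and each Lrp2 hairpin with ctrl sh, so the hairpin comparisons share their control libraries. The study asked which pathways change alike when SREBP2 is raised and Lrp2 is lowered in the RPE.

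Library totals ran from 8921885 to 13696934 counts, at which 3 counts correspond to 0.219 to 0.336 counts per 1000000 counts (CPM). Srebf2 rose in the nSREBP2 libraries (log2FC 1.10 ± 0.11 SE, adjusted P = 0.000121), and Lrp2 fell with nSREBP2 (log2FC -2.18) and with the hairpins sh1 (-1.68) and sh2 (-1.60). Y-linked transcripts marked all 3 nSREBP2 libraries, uninjected replicate 3 and Lrp2 sh2 replicates 2 and 3 as male, and the other libraries, all 3 GFP ones included, as female, so sex and nSREBP2 cannot be told apart within that comparison. The pigment cell genes Pmel, Tyrp1 and Mitf were present in every library, with Pmel between 1899 and 3207 CPM. Rpe65, the retinoid isomerase that defines mature RPE, stood at 371 to 1115 CPM in uninjected libraries and at 1.06 to 97.8 CPM in injected ones, so this defining marker was near 0 in most injected libraries. ctrl sh replicate 1 stood apart, with 97.8 CPM of Rpe65 against 2.58 and 1.77 CPM in the other ctrl sh libraries. The summed level of 10 fibroblast and scleral markers was 18099 CPM or more in every library. In such bulk tissue, fewer cells of a type and less RNA per cell cannot be told apart.

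The 3 genes that were called differentially expressed in the study's comparisons were Inhba, Gdf10 and Ltbp2, and the 250 bases upstream of their start sites are printed to show the promoters that the values below belong to. Sequences are from RefSeq (GRCm38.p6), along the gene's strand, and capitals mark matches to the motifs searched on both strands, which were the E-box CACGTG and GTGGGG, the core of sterol regulatory elements. The letters of these motifs do not overlap in the windows printed. Inhba is read from chr13:16011601-16011850 (plus strand), Gdf10 from chr14:33923337-33923586 (plus strand) and Ltbp2 from chr12:84876492-84876741 (minus strand).
Inhba: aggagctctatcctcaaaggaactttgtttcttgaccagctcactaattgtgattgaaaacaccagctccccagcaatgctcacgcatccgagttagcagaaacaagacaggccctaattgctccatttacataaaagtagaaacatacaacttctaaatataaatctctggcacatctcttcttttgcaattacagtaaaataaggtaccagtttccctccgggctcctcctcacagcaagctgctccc
Gdf10: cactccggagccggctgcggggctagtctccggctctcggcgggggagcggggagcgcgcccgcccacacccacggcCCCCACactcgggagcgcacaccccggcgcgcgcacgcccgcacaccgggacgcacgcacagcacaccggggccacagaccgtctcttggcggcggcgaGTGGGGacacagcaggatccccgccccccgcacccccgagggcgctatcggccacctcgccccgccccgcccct
Ltbp2: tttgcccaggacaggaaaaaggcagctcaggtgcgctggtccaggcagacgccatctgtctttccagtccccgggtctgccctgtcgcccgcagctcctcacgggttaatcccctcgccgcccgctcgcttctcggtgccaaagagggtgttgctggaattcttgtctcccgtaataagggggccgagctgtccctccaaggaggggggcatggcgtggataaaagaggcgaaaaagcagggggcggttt
The Gdf10 promoter held GTGGGG with its first base 74 bases upstream of the start, and the same letters on the opposite strand from 173 bases upstream. Neither motif occurred in the windows of Inhba or Ltbp2. Of the other genes, Tgfb3 was not searched here. Tgfb1 held GTGGGG at 184 and 45 bases upstream and Tgfb2 held CACGTG at 51 bases upstream, while the windows of Inhbb and Ltbp1 held neither. Of 32851 promoters of the same length, 25.5% held GTGGGG and 6.02% held CACGTG. A match describes letters in a window and was not tested as a binding site.

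In GRCm38 with GENCODE M21, Inhba lies on chromosome 13 from 16011851 to 16031621 with 6390 bases of merged exon, Gdf10 on chromosome 14 from 33923587 to 33937983 with 5210 bases, and Ltbp2 on chromosome 12 from 84783212 to 84876532 with 8184 bases. The exons of 5 of the 8 genes overlapped no other gene. Ltbp2 shared 764 exonic bases with the opposite-strand gene D030025P21Rik, which was at 0.137 to 0.301 CPM on average in the 6 groups. Tgfb3 shared 420 exonic bases and Tgfb2 shared 124 with opposite-strand transcripts. Whether reads were counted by strand is not given in the sources used here, so reads in those stretches cannot be assigned with certainty.

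In uninjected libraries the most abundant transcript per kilobase of exon was Tgfb3, at 57.0 ± 9.0 CPM per kb (SD, n = 3). Ltbp1, which tethers latent TGF-beta to the matrix, followed at 19.2 ± 1.4 CPM per kb, and Tgfb1 at 16.8 ± 0.9 CPM per kb. Tgfb2, the main isoform of ocular fluids, was at 14.2 ± 2.7 CPM per kb. Ltbp2, a microfibril protein of the ciliary zonule and sclera, was at 12.8 ± 3.4 CPM per kb, and Gdf10 was at 12.7 ± 2.7 CPM per kb. The activin subunits were the least abundant, with Inhbb at 2.74 ± 0.32 and Inhba at 1.75 ± 0.64 CPM per kb. All 8 genes were well above the counting floor, since the lowest count of any of them in any library was 79, for Inhba.

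The genes differed in how far their levels spread over the 6 groups. The highest group mean was 4.45 times the lowest for Inhba, 2.63 times for Gdf10, 2.42 times for Ltbp2 and 1.98 times for Tgfb2. The same ratio was 1.62 for Inhbb, 1.49 for Tgfb1, 1.46 for Ltbp1 and 1.35 for Tgfb3. nSREBP2 had the highest group mean of Inhba, Tgfb1 and Inhbb and the lowest of Gdf10 and Tgfb3. For Inhba, Tgfb1 and Gdf10 the nSREBP2 libraries did not overlap the next group in the order, whereas for Inhbb and Tgfb3 they did. Lrp2 sh2 had the highest group mean of Tgfb2 and Ltbp2 and the lowest of Ltbp1, and only for Ltbp2 was it separate from the next group.

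**Figure D1:**
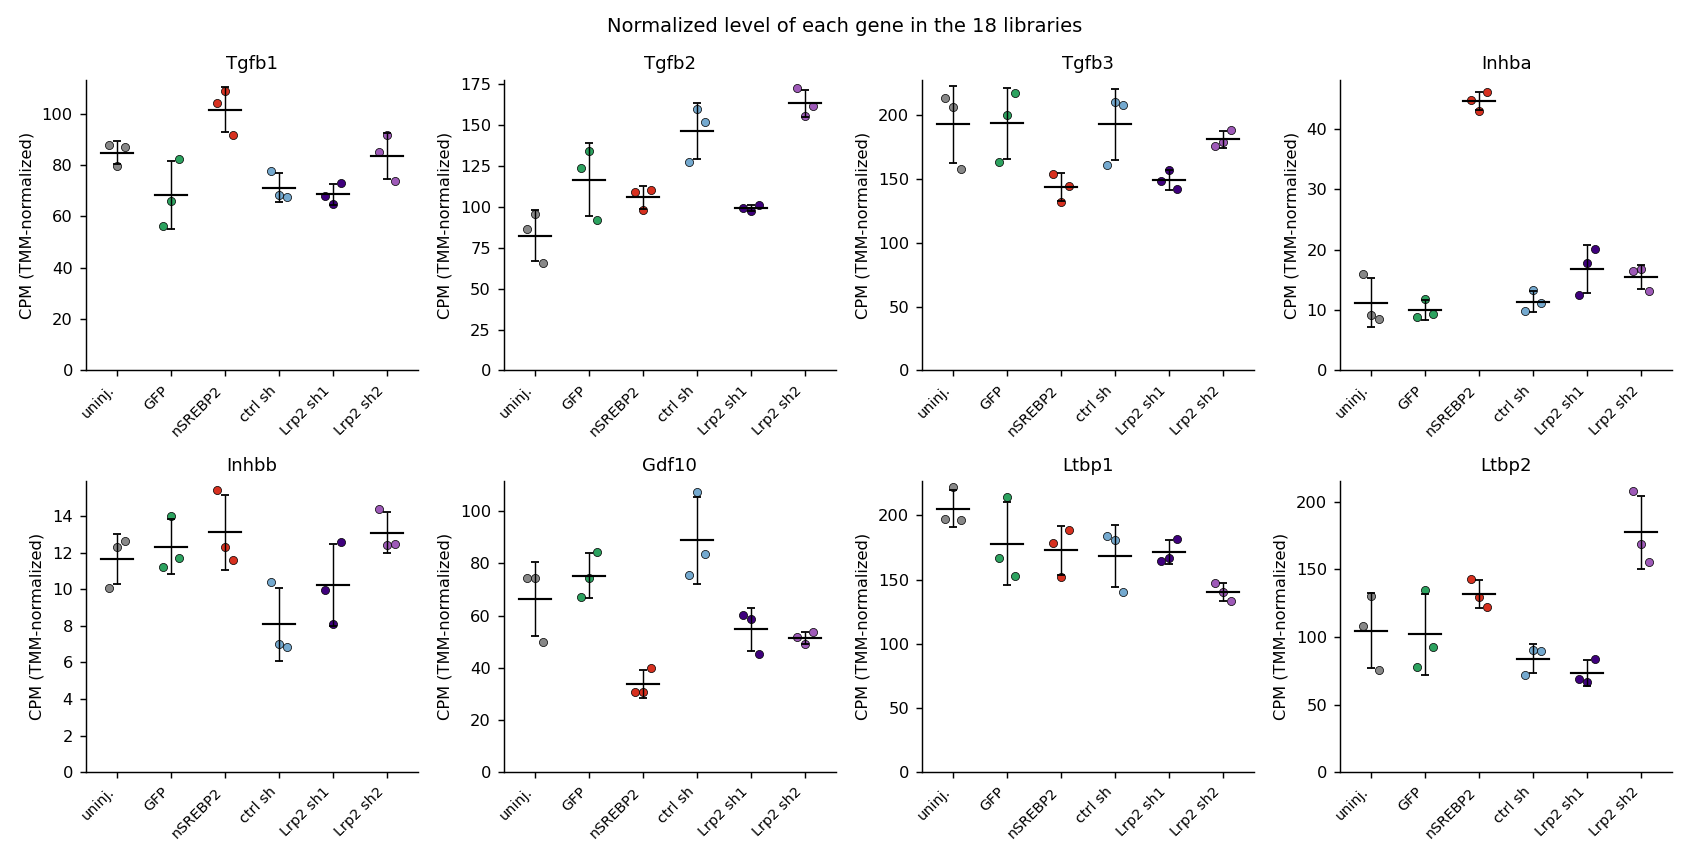
TMM-normalized CPM (y axis, from 0) of the 8 genes in each of the 18 libraries, by group (x axis), with points for libraries and bars for the group mean and SD. Inhba stands at 43.0 to 46.1 CPM in the nSREBP2 libraries and at 8.52 to 20.1 CPM in all others, while Gdf10 is lowest with nSREBP2, at 30.7 to 39.9 CPM.

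With nSREBP2, Inhba rose and Gdf10 fell past the fold limit, Tgfb1 rose and Tgfb3 fell by less, and Tgfb2, Inhbb, Ltbp1 and Ltbp2 did not pass the test. Of all genes, 6.67% were called differentially expressed in this comparison and 21% passed on adjusted P alone, against 2 and 4 of the 8. The groups did not overlap in CPM for 4 of the 8 genes and for 37.5% of all genes. The median log2FC of the 8 genes was 0.02, beside -0.02 over all genes.

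Inhba encodes the beta A subunit, whose homodimer is activin A. It was at 8.83, 11.8 and 9.38 CPM in GFP replicates 1 to 3 and at 44.7, 43.0 and 46.1 CPM in nSREBP2 replicates 1 to 3. Every nSREBP2 library was above every library of the other 5 groups. The change was 4.45-fold (log2FC 2.15 ± 0.11 SE, adjusted P = 3.23e-06). When sex was added to a model of the 18 libraries, the log2FC was 2.46, and male libraries of other groups held 8.52, 16.8 and 13.1 CPM. Against uninjected libraries it was 1.96. Inhbb, the subunit of activin B, was at 12.3 ± 1.5 CPM with GFP and 13.1 ± 2.0 CPM with nSREBP2 (SD, n = 3), and its log2FC of 0.09 had a 95% confidence interval from -0.24 to 0.41.

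Gdf10, a ligand close to BMP3 and also named BMP3B, was at 67.2, 74.5 and 84.2 CPM with GFP and at 30.7, 30.7 and 39.9 CPM with nSREBP2. The nSREBP2 libraries were the lowest 3 of all 18. The level was 2.24-fold lower (log2FC -1.16 ± 0.12 SE, adjusted P = 0.000151). It fell short of the fold limit with sex as a term (log2FC -0.88, adjusted P = 0.018) and against uninjected libraries (log2FC -0.996, adjusted P = 0.00285). Among uninjected mice the male library was at 49.8 CPM and the female ones at 74.2 and 74.6 CPM.

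Tgfb1, the isoform best known from immune and wound responses, was at 56.1, 66.1 and 82.4 CPM with GFP and at 104, 109 and 91.8 CPM with nSREBP2. The groups did not overlap, and the log2FC was 0.57 ± 0.13 (SE, adjusted P = 0.0124). The adjusted P was 0.0618 without GFP replicate 2 and 0.0505 without nSREBP2 replicate 2, and against uninjected libraries the log2FC was 0.24 with an adjusted P of 0.0889. Tgfb3 was at 163, 201 and 218 CPM with GFP and at 154, 132 and 144 CPM with nSREBP2, a fall of 0.44 on the log2 scale (SE 0.10, adjusted P = 0.0153). That fall did not pass with sex as a term (log2FC -0.27, adjusted P = 0.377), without GFP replicate 2 (adjusted P = 0.0648) or without nSREBP2 replicate 2 (0.0657). Tgfb2 had a log2FC of -0.14 (95% confidence interval -0.42 to 0.13). For the matrix proteins the log2FC was -0.05 (-0.32 to 0.23) for Ltbp1 and 0.37 (-0.0022 to 0.74) for Ltbp2. Ltbp2 did pass the test without GFP replicate 2 (log2FC 0.61, adjusted P = 0.00669), with sex as a term (0.86, adjusted P = 0.0229) and without the low-count filter (0.36, adjusted P = 0.0276). Tgfb2 passed without GFP replicate 3 (log2FC -0.28, adjusted P = 0.0245).

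With Lrp2 sh1, Gdf10 and Tgfb2 fell and no gene of the 8 passed the fold limit by edgeR or by DESeq2, although 4 had an unadjusted p under 0.05 by edgeR. Here and below, the share of all genes with an unadjusted p under 0.05 was not counted. Over all genes, 0.994% were called differentially expressed and 5.33% passed on adjusted P alone, with 2.28% lower. The median log2FC of the 8 genes was -0.12, beside -0.01 over all genes. Groups did not overlap for 3 of the 8 genes and for 25.1% of all genes.

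Tgfb2 was at 127, 160 and 152 CPM in ctrl sh replicates 1 to 3 and at 99.5, 97.4 and 101 CPM in Lrp2 sh1 replicates 1 to 3. All Lrp2 sh1 libraries were below all ctrl sh libraries, and the level was 1.47-fold lower (log2FC -0.56 ± 0.09 SE, adjusted P = 0.00645). Its direction depended on the control: against uninjected libraries, at 65.4 to 95.6 CPM, the log2FC was 0.25 (adjusted P = 0.148). Gdf10 was at 75.4, 107 and 83.7 CPM with ctrl sh and at 60.2, 58.6 and 45.3 CPM with Lrp2 sh1. The groups did not overlap and the level was 1.62-fold lower (log2FC -0.70 ± 0.14 SE, adjusted P = 0.0218). The adjusted P for Gdf10 was 0.0535 without ctrl sh replicate 3 and 0.054, 0.0637 and 0.0851 without Lrp2 sh1 replicates 1, 2 and 3, and against uninjected libraries the log2FC was -0.29 (adjusted P = 0.213). Without ctrl sh replicate 1, the library with more Rpe65, the log2FC was -0.65 for Tgfb2 and -0.81 for Gdf10, and both passed the test.

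Inhba was at 9.79, 13.3 and 11.1 CPM with ctrl sh and at 12.4, 17.8 and 20.1 CPM with Lrp2 sh1. The groups overlapped, and the log2FC of 0.55 ± 0.18 (SE) did not pass the test (adjusted P = 0.12). Tgfb3 did not overlap between the groups but did not pass either (log2FC -0.37, adjusted P = 0.0708). Tgfb3 passed by DESeq2 (adjusted P = 0.0101), without the low-count filter (0.0066), against uninjected libraries (0.0349) and without ctrl sh replicate 1 (log2FC -0.49, adjusted P = 0.001). Inhba passed without the filter (adjusted P = 0.0251) and without Lrp2 sh1 replicate 1 (log2FC 0.73, adjusted P = 0.046). Against uninjected libraries Tgfb1 had a log2FC of -0.32 (adjusted P = 0.0177). Tgfb1, Inhbb, Ltbp1 and Ltbp2 had log2FC between -0.20 and 0.33.

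With Lrp2 sh2, Ltbp2 and Inhbb rose and Gdf10 fell, and only Ltbp2 was called differentially expressed. Over all genes, 4.76% were called differentially expressed and 18.1% passed on adjusted P alone, with 8.59% higher and 9.48% lower. The median log2FC of the 8 genes was 0.21, beside 0.01 over all genes. Groups did not overlap for 3 of the 8 genes and for 36.8% of all genes.

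Ltbp2 was at 71.5, 90.4 and 89.8 CPM with ctrl sh and at 208, 169 and 155 CPM with Lrp2 sh2. Every Lrp2 sh2 library was above every other library of the series. The change was 2.13-fold (log2FC 1.09 ± 0.13 SE, adjusted P = 0.000541). It stayed past the adjusted P threshold but under the fold limit without ctrl sh replicate 1 (log2FC 0.98), without Lrp2 sh2 replicate 1 (0.96) and against uninjected libraries (0.75). With sex as a term it was 1.40. The summed level of 7 lens and ciliary body markers was 13.4 to 23.3 CPM with ctrl sh and 34.2 to 46.6 CPM with Lrp2 sh2, without overlap. The same sum was 15.1 to 886 CPM in uninjected and 11.4 to 142 CPM in GFP libraries. Ltbp2 was at 75.5 to 130 CPM in uninjected and at 78.0 to 135 CPM in GFP libraries. Of the 3 lens and ciliary body markers tested with Lrp2 sh2, Optc rose (log2FC 2.31, adjusted P = 0.00221). Otx1 (log2FC 0.75, adjusted P = 0.0733) and Msx1 (-0.18, adjusted P = 0.580) did not pass, and the rest of the 7 were not tested. The part of such tissue in the Ltbp2 level was not tested.

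Gdf10 was at 51.7, 49.1 and 53.8 CPM with Lrp2 sh2, below all 3 ctrl sh libraries and 1.71-fold lower than them (log2FC -0.78 ± 0.12 SE, adjusted P = 0.00256). With sex as a term the log2FC was -0.59 (adjusted P = 0.0523), and against uninjected libraries it was -0.38 (adjusted P = 0.0943). Inhbb was at 10.4, 7.03 and 6.83 CPM with ctrl sh and at 14.4, 12.4 and 12.5 CPM with Lrp2 sh2, without overlap (log2FC 0.70 ± 0.17 SE, adjusted P = 0.022). The adjusted P for Inhbb was 0.0803 without ctrl sh replicate 2, 0.0844 without ctrl sh replicate 3, 0.0697 without Lrp2 sh2 replicate 1 and 0.0548 without Lrp2 sh2 replicate 2. Against uninjected libraries the log2FC of Inhbb was 0.15 (adjusted P = 0.463).

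Inhba, at 16.4, 16.8 and 13.1 CPM with Lrp2 sh2, had a log2FC of 0.45 ± 0.15 (SE) and did not pass the test (adjusted P = 0.0746). Tgfb1 (log2FC 0.24, adjusted P = 0.107), Tgfb2 (0.17, 0.236), Tgfb3 (-0.08, 0.651) and Ltbp1 (-0.25, 0.117) did not pass either. Against uninjected libraries Tgfb2 was higher (log2FC 0.97, adjusted P = 0.00121) and Ltbp1 lower (-0.56, adjusted P = 0.00163). Without Lrp2 sh2 replicate 3, Inhba (log2FC 0.55, adjusted P = 0.0431) and Tgfb1 (0.32, adjusted P = 0.0367) passed, and without ctrl sh replicate 3 Ltbp1 passed (-0.37, adjusted P = 0.0192).

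**Figure D2:**
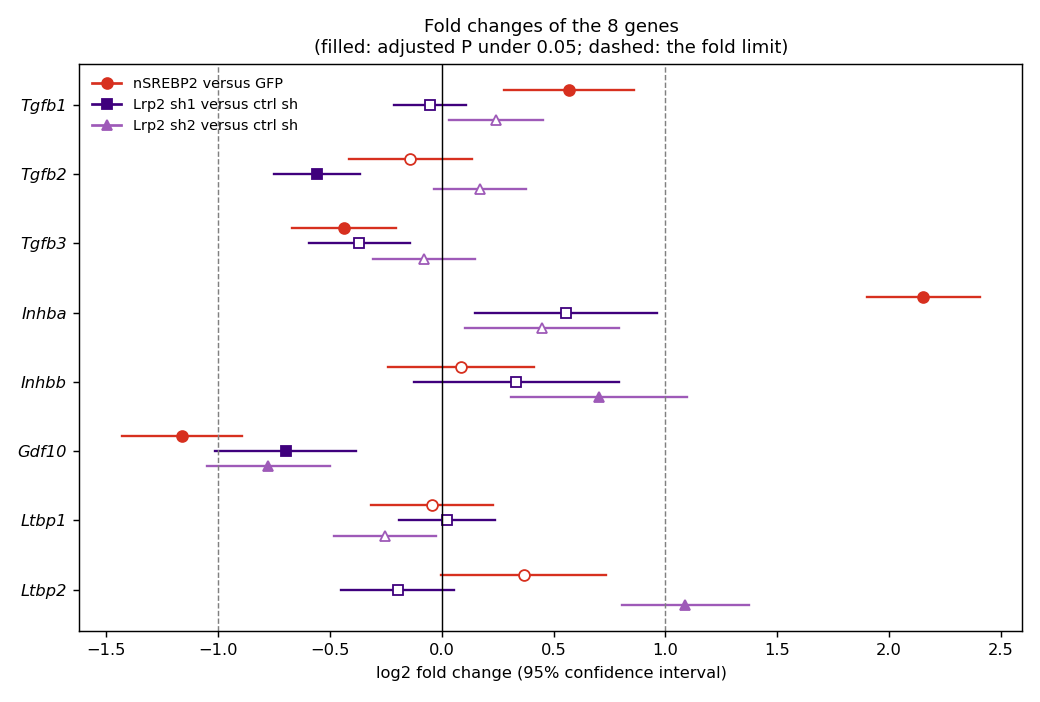
log2FC (x axis) with 95% confidence intervals for the 8 genes (y axis) in the 3 comparisons, with filled symbols where the adjusted P was under 0.05 and dashed lines at the fold limit. Gdf10 is filled in all 3 comparisons, at -1.16, -0.70 and -0.78, and Inhba only for nSREBP2, at 2.15.

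Gdf10 was the only gene of the 8 with an adjusted P under 0.05 in each of the 3 comparisons, each time lower. The share of all genes that passed in all 3 was not counted. Both hairpin comparisons used the same ctrl sh libraries, which had the highest Gdf10 mean of the 6 groups (88.8 CPM, against 66.2 CPM in uninjected libraries). For Gdf10 the nSREBP2 and Lrp2 sh1 effects differed by -0.47 (95% confidence interval -0.92 to -0.02, adjusted P = 0.172). Its nSREBP2 and Lrp2 sh2 effects differed by -0.37 (-0.78 to 0.03, adjusted P = 0.287). The nSREBP2 effect on Inhba exceeded the Lrp2 sh1 effect, which had not passed the test, by 1.60 on the log2 scale (SE 0.23, adjusted P = 0.000551). It exceeded the Lrp2 sh2 effect, which had not passed either, by 1.72 (SE 0.19, adjusted P = 0.000199). In tests of this kind, 12.5% and 6.39% of all genes passed, against 2 and 1 of the 8 genes. The other gene was Tgfb1, whose effect was 0.62 higher with nSREBP2 than with Lrp2 sh1 (adjusted P = 0.0255), and 7 of the 12 fits that left out 1 library lost that call.

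Lrp2 itself was at 29.7 to 42.8 CPM with Lrp2 sh1 and at 34.5 to 43.9 CPM with Lrp2 sh2, and these ranges overlapped. Compared directly, the hairpins differed in 5 of the 8 genes, where 22.4% of all genes passed the same test. All 5 had libraries that did not overlap, as had 39% of all genes. Ltbp2 was at 69.1, 66.5 and 84.0 CPM with Lrp2 sh1, and Lrp2 sh2 was higher by 1.28 on the log2 scale (SE 0.12, adjusted P = 6.06e-05). Tgfb2, at 172, 156 and 162 CPM with Lrp2 sh2, was higher by 0.72 (SE 0.06, adjusted P = 3.24e-05). The differences of Tgfb1 (0.29), Tgfb3 (0.29) and Ltbp1 (-0.28) were smaller and did not pass in the fit of all 18 libraries. For Gdf10 the hairpins differed by -0.08 (95% confidence interval -0.31 to 0.15) and for Inhba by -0.11 (-0.50 to 0.28).

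Against uninjected mice, Tgfb2 rose with ctrl sh and did not pass the test with GFP. It was at 86.4, 95.6 and 65.4 CPM in uninjected libraries and at 127, 160 and 152 CPM with ctrl sh, without overlap (log2FC 0.80 ± 0.14 SE, adjusted P = 0.0176). The adjusted P was 0.084 without ctrl sh replicate 2 and 0.0737 without ctrl sh replicate 3. With GFP, Tgfb2 was at 124, 134 and 91.8 CPM, which overlapped the uninjected range (log2FC 0.48, adjusted P = 0.159). None of the 8 genes passed the fold limit in either comparison by edgeR or DESeq2, where 2.39% (ctrl sh) and 1.41% (GFP) of all genes did, and 5 and 2 of the 8 had an unadjusted p under 0.05. On adjusted P alone the background was 6.49% and 2.48%. Libraries did not overlap for 4 of the 8 genes with ctrl sh and for none with GFP, beside 32.2% and 25.7% of all genes. For Gdf10 the log2FC against uninjected libraries was 0.40 with ctrl sh (95% confidence interval 0.01 to 0.79, adjusted P = 0.19) and 0.17 with GFP (-0.18 to 0.51, adjusted P = 0.584).

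Among the 17 other genes of latency, storage and activation, the one that fell past the fold limit in all 3 comparisons was Itgb8, the beta 8 integrin chain that helps to release active TGF-beta. How many of all genes did so was not counted, and the 2 hairpin comparisons share their ctrl sh libraries. Itgb8 was at 293, 291 and 208 CPM with GFP and at 112, 88.3 and 92.8 CPM with nSREBP2 (log2FC -1.44 ± 0.14 SE, adjusted P = 9.34e-05). It was at 1100, 534 and 612 CPM with ctrl sh, at 198, 266 and 213 CPM with Lrp2 sh1 (log2FC -1.73) and at 135, 148 and 180 CPM with Lrp2 sh2 (log2FC -2.26). Case and control libraries overlapped in none of the 3 comparisons, and without ctrl sh replicate 1 the hairpin values were -1.35 and -1.89. Uninjected libraries held 383, 956 and 951 CPM, and GFP libraries were lower than these as well (log2FC -1.55, adjusted P = 0.0395). Within their own groups, ctrl sh replicate 1 and uninjected replicates 2 and 3 were the higher libraries in both Itgb8 and Rpe65. Between groups the libraries were not in the same order for Itgb8 and Rpe65. ctrl sh replicates 2 and 3 held 534 and 612 CPM of Itgb8 with 2.58 CPM of Rpe65 or less. Uninjected replicate 1 held 383 CPM of Itgb8 with at least 371 CPM of Rpe65. Other RPE markers differed from Rpe65 in this. Ttr was at 777 to 2148 CPM in uninjected, 1133 to 1954 CPM in ctrl sh and 40.4 to 72.2 CPM in GFP libraries. In the same order Lrat was at 246 to 867, 93.0 to 313 and 20.2 to 28.3 CPM. The part that mature RPE cells had in Itgb8 was not tested.

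With nSREBP2, 6 of these 17 genes rose and 4 fell on adjusted P alone, where 12.6% of all genes rose and 8.47% fell, and their median log2FC was 0.20 beside -0.02 over all genes. With Lrp2 sh1, 0 rose and 2 fell (7 had an unadjusted p under 0.05, and DESeq2 likewise called 2), with a median of -0.01. The second was Itgb6, another integrin chain that releases TGF-beta, at 6.53, 1.95 and 3.03 CPM with ctrl sh and 0.711, 0.992 and 1.36 CPM with Lrp2 sh1 (log2FC -1.92, adjusted P = 0.0452). Its call was lost without ctrl sh replicate 1 (log2FC -1.29, adjusted P = 0.0639), without ctrl sh replicate 3 and without each of the Lrp2 sh1 libraries. With Lrp2 sh2, 2 rose and 4 fell, with a median of 0.02 beside 0.01 over all genes.

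Of 12 other TGF-beta superfamily ligands, listed with the activin, nodal and myostatin type, 6 were tested with nSREBP2 and with Lrp2 sh1 and 5 with Lrp2 sh2. Gdf15 alone was called differentially expressed, and it was called in each of the 3 comparisons. How many of all genes were called in all 3 was not counted. Gdf15 is a stress-induced secreted factor of the TGF-beta superfamily that signals through a receptor of its own. It was at 14.5, 15.3 and 9.90 CPM with GFP and at 39.0, 26.2 and 27.0 CPM with nSREBP2 (log2FC 1.22 ± 0.19 SE, adjusted P = 0.0017). With sex as a term that value was 1.11 and the adjusted P 0.0624. From 2.97, 4.45 and 5.90 CPM with ctrl sh it rose to 34.0, 19.8 and 23.0 CPM with Lrp2 sh1 (log2FC 2.54) and to 15.01, 16.02 and 18.6 CPM with Lrp2 sh2 (log2FC 1.91). GFP libraries were already above uninjected ones, at 6.25, 4.26 and 4.96 CPM (log2FC 1.33, adjusted P = 0.0189).

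Of 10 receptors and co-receptors, 8 were tested and none was called differentially expressed in the 3 comparisons by edgeR or DESeq2. Their unadjusted p was under 0.05 in 5, 3 and 6 cases. On adjusted P alone, 2 rose and 3 fell with nSREBP2, 1 fell with Lrp2 sh1, and 2 rose and 3 fell with Lrp2 sh2. Over all genes, 6.67%, 0.994% and 4.76% were called and 21%, 5.33% and 18.1% passed on adjusted P alone. Of the 7 secreted or membrane inhibitors, only Fstl3, a follistatin-like protein that binds activin, was called differentially expressed. Fstl3 was at 2.61, 3.36 and 4.55 CPM with ctrl sh and at 9.18, 9.81 and 6.78 CPM with Lrp2 sh2, where the groups did not overlap (log2FC 1.31 ± 0.24 SE, adjusted P = 0.00497). Against uninjected libraries its log2FC was 0.85. Of 10 SMAD transducers and regulators, 9 were tested and none was called differentially expressed by edgeR or DESeq2, and the unadjusted p was under 0.05 for 6, 1 and 2 of them in the order nSREBP2, sh1 and sh2.

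Among 15 genes known to be induced by TGF-beta or activin, 7 rose and 2 fell with nSREBP2 (4 called differentially expressed, all higher), 1 rose with Lrp2 sh1, and 6 rose with Lrp2 sh2 (3 called). In the same order, 12.6%, 3.06% and 8.59% of all genes rose. Their median log2FC was 0.29, -0.04 and 0.25, beside -0.02, -0.01 and 0.01 over all genes.

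Cdkn2b, the cell cycle inhibitor p15, was at 0.679, 0.532 and 0.750 CPM with GFP and at 13.4, 7.75 and 11.7 CPM with nSREBP2 (log2FC 4.02 ± 0.29 SE, adjusted P = 1.76e-05). With Lrp2 sh2 it was at 5.75, 7.97 and 7.79 CPM against 0.725 to 1.01 CPM with ctrl sh (log2FC 3.01), whereas Lrp2 sh1 libraries held 1.26, 0.992 and 1.87 CPM. Tgfbi, a matrix protein named for its induction by TGF-beta, was at 130, 128 and 157 CPM with GFP and at 483, 463 and 448 CPM with nSREBP2 (log2FC 1.75 ± 0.09 SE, adjusted P = 3.13e-06). The groups overlapped in none of the comparisons given here that passed the test, and for Cdkn2b the Lrp2 sh1 and ctrl sh libraries did overlap.

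Cdkn1a, the cell cycle inhibitor p21 and also a p53 target, was at 36.9, 89.6 and 121 CPM with ctrl sh. It was at 433, 355 and 428 CPM with Lrp2 sh1 (log2FC 2.30) and at 248, 268 and 307 CPM with Lrp2 sh2 (log2FC 1.74). With nSREBP2 it was lower than with GFP (log2FC -0.33, adjusted P = 0.039), at 68.4 to 89.5 CPM against 90.6 to 105 CPM. Uninjected libraries held less Cdkn1a than either, at 38.0 to 59.0 CPM. The rise of GFP libraries over uninjected ones was called (log2FC 1.01, adjusted P = 0.0131).

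**Figure D3:**
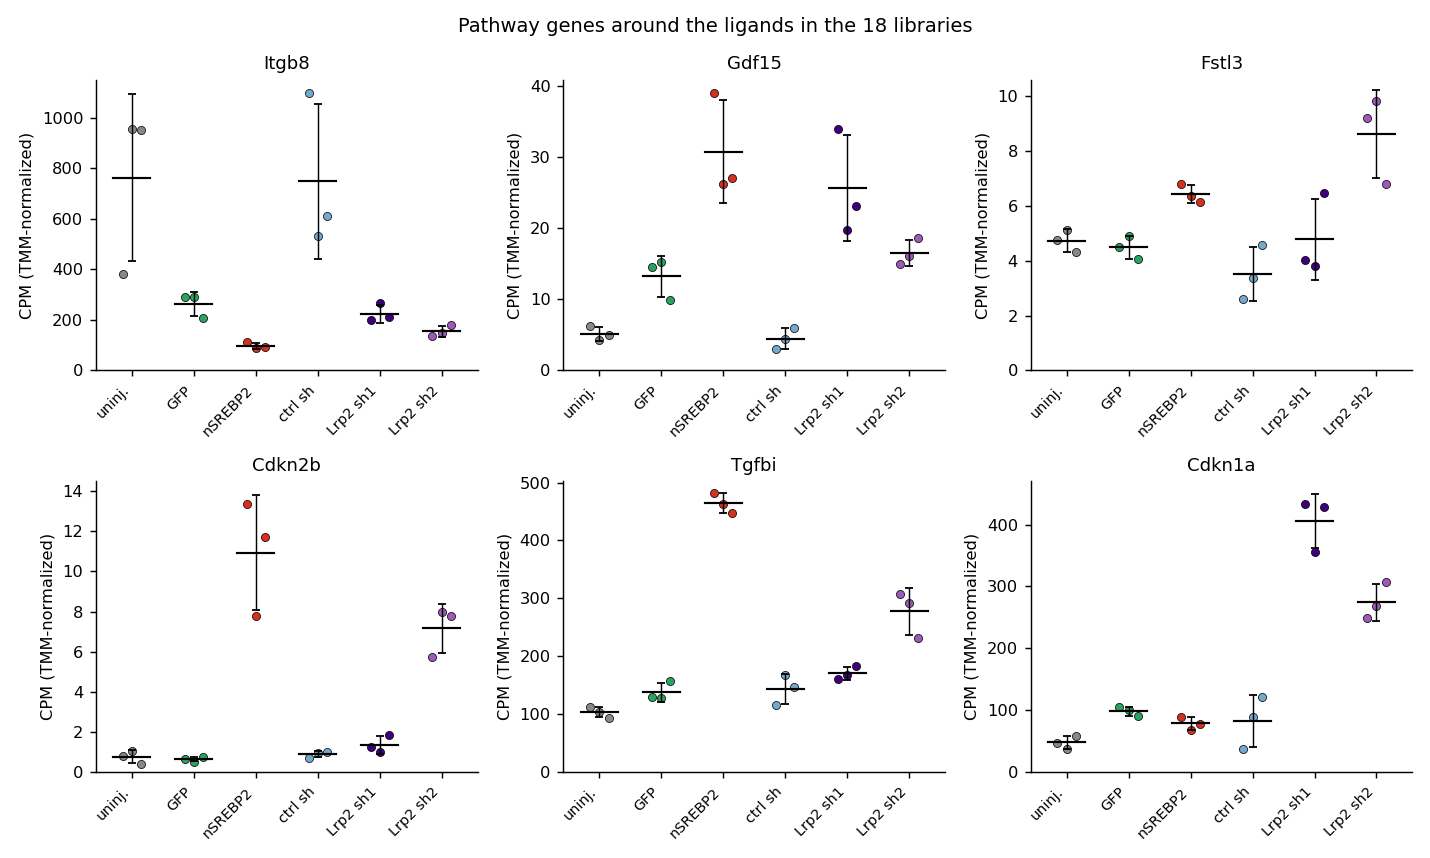
TMM-normalized CPM (y axis, from 0) of the integrin gene Itgb8, the ligand gene Gdf15, the activin-binding gene Fstl3 and 3 target genes in the 18 libraries by group (x axis), with points for libraries and bars for mean and SD. Itgb8 is at 88.3 to 112 CPM with nSREBP2 and at 534 to 1100 CPM with ctrl sh, while Cdkn2b is above 5 CPM only with nSREBP2 and Lrp2 sh2.

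Markers of other cell types moved with some of these changes. The summed level of 10 fibroblast and scleral markers was 34268 to 43707 CPM with GFP and 71271 to 86704 CPM with nSREBP2, and 8 of the 10 rose. The 7 macrophage markers summed to 252 to 300 CPM with GFP and to 476 to 522 CPM with nSREBP2, and all 7 rose. The 8 endothelial markers summed to 1926 to 2494 CPM with GFP and to 1457 to 1524 CPM with nSREBP2, where 6 fell, and 7 fell with Lrp2 sh2 (2074 to 2210 CPM with ctrl sh, 1369 to 1480 CPM with Lrp2 sh2). The 10 RPE markers summed to 6261 to 8203 CPM with ctrl sh and to 4129 to 4739 CPM with Lrp2 sh2, where 4 fell. Pmel and Tyrp1 held 2068 and 1772 CPM of this sum on average with Lrp2 sh2. Lrat was at 93.0 to 313 CPM with ctrl sh and 5.62 to 9.04 CPM with Lrp2 sh2. In the same order Ttr was at 1133 to 1954 and 117 to 322 CPM. Ranges of Rpe65, Rlbp1, Best1 and Tyrp1 overlapped between these groups. The 10 rod markers summed to 43.3 to 63.9 CPM with ctrl sh and to 72.6 to 407 CPM with Lrp2 sh2, where 8 rose. With Lrp2 sh1, 1 of 10 fibroblast, 1 of 7 macrophage and 0 of 8 endothelial markers fell, and none of these rose. The RPE marker sum was 5529 to 5829 CPM with Lrp2 sh1, below the ctrl sh range, and 1 of the 10 fell. With GFP and nSREBP2 the RPE sums overlapped, at 5243 to 5613 and 4738 to 6291 CPM. Single RPE markers went both ways there. Lrat was at 20.2 to 28.3 CPM with GFP and 9.03 to 9.24 CPM with nSREBP2, and Best1 at 2.48 to 2.78 and 7.95 to 10.2 CPM. The 7 smooth muscle and pericyte markers summed to 2627 to 2836 CPM with ctrl sh and to 2091 to 2377 CPM with Lrp2 sh1, where 2 fell. The 8 markers of Mueller glia and other retinal cells summed to 971 to 1191 CPM with GFP and to 662 to 789 CPM with nSREBP2. Their sum was 1323 to 1378 CPM with ctrl sh, 1037 to 1093 CPM with Lrp2 sh1 and 883 to 1025 CPM with Lrp2 sh2. It was lower without overlap in all 3 comparisons, and the share of all genes that were so was not counted. The endothelial sum (1905 to 2054 CPM with Lrp2 sh1) and the smooth muscle and pericyte sum were likewise lower without overlap in all 3. The latter was 2355 to 3113 CPM with GFP, 1947 to 2262 CPM with nSREBP2 and 2098 to 2568 CPM with Lrp2 sh2. Of the 7 Mueller glia and other retinal markers tested, Glul, the glutamine synthetase gene, fell in all 3 comparisons (log2FC -0.73, -0.40 and -0.69). Rbpms fell and Opn1sw rose with nSREBP2, and Prkca rose with Lrp2 sh2. In the 6 groups no gene of the fibroblast, macrophage, endothelial or rod lists was at 0. The part of these cells in the changes of Inhba, Gdf10, Ltbp2 and the target genes was not tested.

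**Figure D4:**
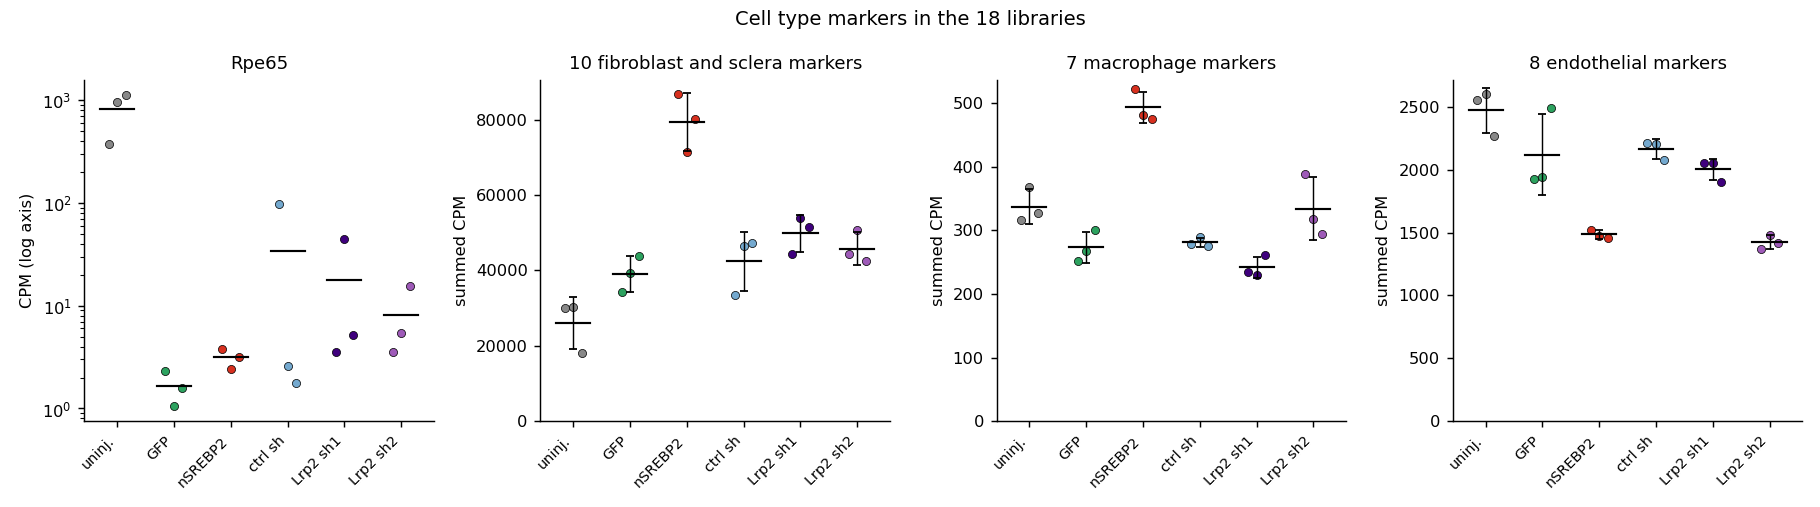
Cell type markers in the 18 libraries by group (x axis): CPM of Rpe65 on a log axis, and the summed CPM of 10 fibroblast and scleral, 7 macrophage and 8 endothelial markers on axes from 0, with bars for the mean and, on the linear axes, the SD. Fibroblast and macrophage sums are highest with nSREBP2, at 71271 to 86704 and 476 to 522 CPM, and Rpe65 is under 100 CPM in every injected library.

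Across the 18 libraries, the genes whose log2 CPM followed each of the 8 most closely were ranked among 14892 genes by Pearson's r, as a description over libraries that share groups and normalization. For Inhba they were Lrig1 (r = 0.967), Nid1 (0.960) and Lsp1 (0.957). For Gdf10 they were Grin3a (0.930), Igfbp4 (0.925) and Zhx1 (0.921). Ltbp2 was followed by Scube1 (0.896), Shb (0.894) and Map9 (0.876), and Ltbp1 by Opa3 (0.832), Gdnf (0.822) and Rap1gap (0.780). Tgfb1 was followed by Il4ra (0.928), Tnfaip3 (0.917) and Gm16174 (0.905), Tgfb2 by Pde1a (0.893), Pcdh7 (0.891) and Frk (0.854), and Tgfb3 by Nr2f1 (0.889), Tsc22d1 (0.879) and Pik3r1 (0.878). For Inhbb they were Bves (0.865), Usp12 (0.862) and Pfkl (0.819).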

How the data were processed

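RPE was dissociated from eyecups after removal of the retina, and rRNA-depleted directional libraries were sequenced as paired ends. The authors mapped reads to GRCm38 and counted them per gene with STAR, and deposited 1 table of raw counts for 52636 genes. The annotation and the strand setting are not given in the sources used here.

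Groups and replicate numbers came from the labels. Counts were analysed in R 4.3.3 with edgeR 4.0.16: filterByExpr, TMM factors, glmQLFit and glmQLFTest on the 6 libraries of each comparison (12 for a difference of effects), with Benjamini-Hochberg adjustment over all genes tested. CPM values use TMM factors from the 18 libraries together. P-values measure the spread between the 3 mice of a group. Alternatives were DESeq2 1.42.0, other size factors and filters, the replicate number as a block, all 18 libraries in 1 fit, sex as a term, uninjected controls and leaving out each library. The scripts were tested on simulated data.

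The 8 genes and all gene lists were chosen with earlier results of these data known. All 8 were named, with up to 3 called genes of each pathway list per comparison by size of change, and the 3 genes most like each of the 8 among genes with mean log2 CPM of at least 1. Some genes of the lists are not reported here by name. Exon lengths came from GENCODE M21, in which 52489 of 52636 identifiers were found. Promoters came from RefSeq (GRCm38.p6).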

Additional observations from a re-analysis of the deposited data

Results flagged for a closer look

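Some of the 8 genes responded differently to treatments that were tested against each other directly (edgeR, adjusted P under 0.05 over all genes), and these differences are listed for a second look. Lrp2 sh2 libraries exceeded Lrp2 sh1 libraries by 1.28 (log2) for Ltbp2, 0.72 for Tgfb2, 0.29 for Tgfb1 and 0.29 for Tgfb3, and were lower for Ltbp1 (-0.28), although both hairpins target Lrp2. In each of the 5 genes all 3 libraries of one hairpin lay on one side of all 3 of the other. The nSREBP2 effect on Inhba exceeded the Lrp2 sh1 effect by 1.60 and the Lrp2 sh2 effect by 1.72. The nSREBP2 effect on Tgfb1 exceeded the Lrp2 sh1 effect by 0.62. All nSREBP2 libraries and 2 of 3 Lrp2 sh2 libraries were from males while GFP, ctrl sh and Lrp2 sh1 libraries were from females, and with sex as a term both Inhba differences and the Ltbp2 and Tgfb2 differences between hairpins passed, and the others did not.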

How the results depend on the processing

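The call of Inhba with nSREBP2 held in every alternative run (log2FC 1.96 to 2.46), and Gdf10 was lower than its control in all 3 comparisons under every alternative. With 79 to 2904 counts per gene and library and 3 mice a group, Tgfb2 with Lrp2 sh1 and Gdf10 with Lrp2 sh2 passed on adjusted P whichever library was left out, while Tgfb1 and Tgfb3 with nSREBP2, Gdf10 with Lrp2 sh1 and Inhbb with Lrp2 sh2 did not. The cause of the shifts below was not tested.

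With sex as a term, 1 of the 8 genes was called with nSREBP2, and 2 differed between the hairpins. Log2FC then changed sign for Tgfb2 (0.14) and Ltbp1 (0.044) with nSREBP2, for Tgfb3 (0.029) with Lrp2 sh2, for Inhba (0.093) and Gdf10 (0.11) between the hairpins, and for Tgfb3 (0.093) and Ltbp1 (0.017) in the difference of the nSREBP2 and Lrp2 sh1 effects. With uninjected controls the counts were 1 for nSREBP2 and 0 for Lrp2 sh2 (edgeR), and log2FC changed sign for Tgfb2 with nSREBP2 (0.34), for Tgfb2 (0.25), Inhbb (-0.21) and Ltbp1 (-0.28, adjusted P = 0.0299) with Lrp2 sh1, and for Tgfb1 (-0.036) with Lrp2 sh2. On adjusted P alone the counts were 4 for nSREBP2, 2 for Lrp2 sh1, 3 for Lrp2 sh2 and 1 for ctrl sh against uninjected.

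Without a low-count filter, 5 genes differed in effect between nSREBP2 and Lrp2 sh1 and 2 between nSREBP2 and Lrp2 sh2, where DESeq2 also gave 2. Tgfb3 was then at 0.000505 with GFP and Inhba at 0.0218 with ctrl sh, both against uninjected, and in a model of all 18 libraries this Inhba value was 0.0035 and 2 genes differed between hairpins.

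Deviations of same-numbered samples from their group means had correlations from -0.382 to 0.295. The highest were 0.295 and 0.277, for replicates 2 and 3 of the hairpins. Differently numbered samples were not compared, so this check cannot exclude a pairing. With the replicate number as a block the counts of called genes were 2 for nSREBP2, 0 for Lrp2 sh1 and 1 for Lrp2 sh2, as without it, the Inhba value of ctrl sh against uninjected was 0.034, and Tgfb2 there had an adjusted P of 0.0559.

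Leaving out 1 library gave 0 to 1 called genes with Lrp2 sh2, and 1 to 2 for each difference of effects. Signs changed with nSREBP2 for Inhbb (-0.036 to 0.18) and Ltbp1 (-0.14 to 0.10), and with Lrp2 sh1 for Tgfb1 (-0.10 to 0.011) and Ltbp1 (-0.087 to 0.088). Against uninjected they changed with GFP for Tgfb3 (-0.13 to 0.10), Inhba (-0.35 to 0.16), Inhbb (-0.037 to 0.12) and Ltbp2 (-0.31 to 0.12), and with ctrl sh for Tgfb3 (-0.14 to 0.10) and Inhba (-0.16 to 0.35). Between hairpins Inhba ran from -0.29 to 0.033, and between the nSREBP2 and Lrp2 sh1 effects Tgfb3 from -0.18 to 0.047 and Ltbp1 from -0.18 to 0.075. None of these values had passed the test.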
